A study of Mus musculus with 6 samples.

Results

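The genes described here mark the regenerative, fetal-like state of the gut epithelium. They are Clu, Anxa1, Il33, Ankrd1, Amotl2, Msln, Yap1 and Tead1, and each was read from the row of the deposited gene table that carries its name. All 8 were found by name, so that 8 of 28752 genes are described. Of the 28752 genes, 18348 had enough counts to be tested, among them 7 of the 8 members. The counts of Ankrd1 were too low.

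RNA sequencing compared 3 samples labelled vector (genotype WT) with 3 samples labelled circEZH2_005 overexpression, a circular RNA made from Ezh2 and delivered by adenovirus. All 6 samples were labelled intestinal crypt stem cells of the mouse, came from Lgr5-GFP animals, were grown as organoids, and had undergone hypoxia/reoxygenation (H/R), with 72 h given for the infection and 4 h at 2% O2 for the hypoxia. The methods give all animals as male and describe biological replicates for the experiments in general. Neither the number of animals behind these libraries nor the age of the Lgr5-GFP donors was stated, so that p-values measure only the spread between these samples, which may be technical. In every sample the epithelial markers Epcam and Krt8 were abundant, Epcam with 557 ± 8.39 FPKM in the vector samples and 586 ± 24.9 FPKM in the circEZH2_005 samples (SD, n = 3 each). Lgr5 itself, the receptor that defines the labelled cell, was at 1.39 ± 0.28 and 0.71 ± 0.07 FPKM (SD, n = 3 each), whereas Olfm4, another crypt marker, was at 550 ± 158 and 389 ± 92.1 FPKM (SD, n = 3 each). FPKM is the fragments per kilobase of transcript, scaled for the mapped fragments of the library, as the authors deposited it, and it is used below wherever levels of different genes are compared. CPM is the count scaled to a common library size with TMM factors, and it is used wherever samples are compared. A log2 ratio below is the fitted log2 fold change of circEZH2_005 against vector, given with its standard error (SE).

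After injury the epithelium of the gut can leave its usual stem cell programme for a while and switch on genes of the fetal intestine. The transcriptional coactivator Yap1 drives much of this switch: it enters the nucleus when the Hippo kinases are inactive and acts through the Tead proteins, which bind DNA. Clu, a secreted chaperone, marks the rare revival stem cells that appear after irradiation, and Anxa1 and Msln are counted among the markers of the regenerating or fetal-type epithelium.

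Because Tead proteins bind the letters GGAATG, or CATTCC on the other strand, the promoters of the members in RefSeq (GRCm38.p6, 250 bases before to 50 bases after each start) were searched for both. Promoters were found for 5 of the 8 members, with 6 start sites, since Il33 has 2. Clu, Msln and Tead1 had no entry. Each of the 6 promoters held at least 1 match, where 14.7% of all 32851 promoters of that length did. The matches are printed below with the 12 bases on either side, 5′ to 3′ on the strand of the gene, and the matched letters are in capitals. They are shown because the regulators and the regulated genes of the pathway are both among the members.
Ankrd1 (chr19:36120037-36120066, minus strand): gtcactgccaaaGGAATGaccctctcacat
Ankrd1 (chr19:36119950-36119979, minus strand): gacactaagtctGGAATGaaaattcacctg
Amotl2 (chr9:102717727-102717756, plus strand): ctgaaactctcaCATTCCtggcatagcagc
Yap1 (chr9:8004720-8004749, minus strand): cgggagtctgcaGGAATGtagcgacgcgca
Anxa1 (chr19:20390890-20390919, minus strand): actgcactgaacCATTCCtgtgaggaataa
Il33, upstream start (chr19:29924970-29924999, plus strand): gtaacattggcaGGAATGctattagcttat
Il33, downstream start (chr19:29945671-29945700, plus strand): tacacaccctcaCATTCCattcatatcgct

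In Ankrd1 the matches began 210 and 123 bases before the start site, in Amotl2 65, in Yap1 141, in Anxa1 236, and in Il33 131 and 107 bases before its starts. Of the 17 promoters of a wider list of YAP/TEAD target genes, which holds Ankrd1 and Amotl2 as well, 7 held a match, as did 15 of the 31 promoters of the Hippo pathway list and 1 of the 20 promoters of other fetal-like genes. A match is a run of letters only, and binding was not measured here.

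Yap1 and Il33 were the best expressed of the 8 genes, and Ankrd1 alone was close to the floor of 3 counts. In the vector samples Yap1 stood highest with 8.36 ± 0.29 FPKM, followed by Il33 with 6.38 ± 1.51, Tead1 with 2.24 ± 0.38, Clu with 1.17 ± 0.40, Msln with 0.73 ± 0.43, Anxa1 with 0.62 ± 0.16 and Amotl2 with 0.56 ± 0.12 FPKM (SD, n = 3 each). The ranges of the vector samples did not overlap between Yap1, Il33, Tead1 and Clu, while neighbours from Clu down to Amotl2 could not be separated. Ankrd1 lay far below, at 0.010 ± 0.018 FPKM (SD, n = 3). By its mean over the 6 samples Yap1 lay above 71.6% of the genes tested, Il33 above 66.1%, Tead1 above 48.1%, Clu above 36.2%, Amotl2 above 30.6%, Msln above 27.0% and Anxa1 above 26.5%. In the circEZH2_005 samples Yap1 and Il33 had overlapping ranges, at 7.04 ± 0.67 and 5.36 ± 1.56 FPKM, and Clu at 0.74 ± 0.30 FPKM lay above Msln at 0.16 ± 0.05 FPKM (SD, n = 3 each).

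With circEZH2_005, 0 of the 7 tested members passed an adjusted p of 0.05 in the edgeR quasi-likelihood fit, Benjamini-Hochberg adjusted over all 18348 genes, against 3.67% of all genes tested (2.69% higher and 0.986% lower). At an unadjusted p under 0.05 there were 2, Anxa1 and Msln, both lower with circEZH2_005, where 23.7% of all genes tested passed and 9.72% passed as lower. DESeq2 on the same counts called these 2 as lower, and it called 5.22% of the 16199 genes that it gave an adjusted p as lower. The edgeR fit without vector sample 2 called the same 2, where 1.74% of the 19145 genes it tested were lower. Limma on log2(FPKM + 1) called 0 of the 5 members it could test. Anxa1 and Msln were not among these 5, as their means were under its minimum of 0.5 FPKM. The median log2 ratio of the 7 members was -0.16, beside 0.00 over all genes tested, and 2 of the 7 had a value above 0. In bulk samples of this kind fewer cells of a type and less RNA per cell cannot be told apart.

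**Figure D1:**
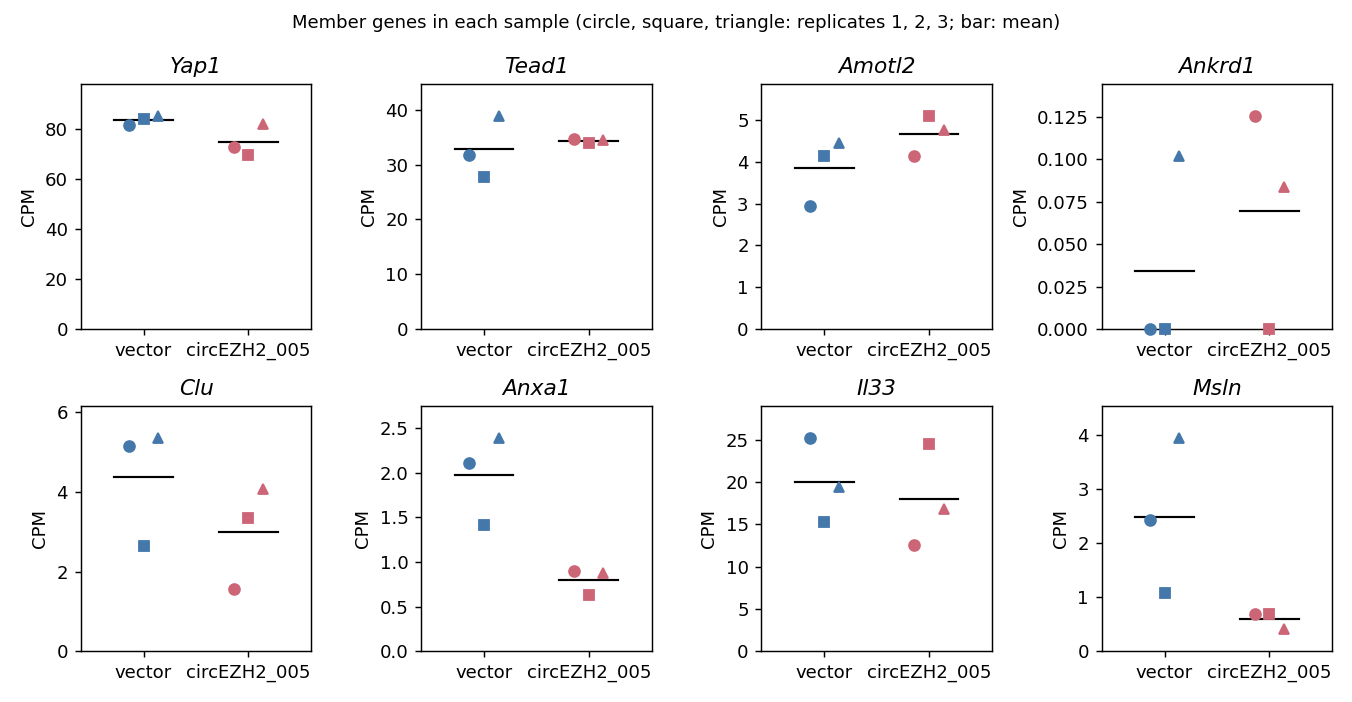
CPM (vertical axes, each from 0) of the 8 members in each of the 3 vector samples (blue) and the 3 circEZH2_005 samples (red), with the mean of each group as a bar. The groups are apart only for Anxa1 and Msln, in both of which the circEZH2_005 samples are lower, and Ankrd1 is at 0 in several samples.

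Yap1 (ENSMUSG00000053110, chr9:7931999-8004596, minus strand, GRCm38) encodes the coactivator at the end of the Hippo pathway. Its level was 81.6, 84.1 and 85.3 CPM in vector samples 1 to 3 and 72.9, 69.7 and 82.1 CPM in circEZH2_005 samples 1 to 3. The third circEZH2_005 sample lay above the first vector sample, so that the groups overlapped narrowly. The log2 ratio was -0.16 (SE 0.09, 95% interval -0.36 to 0.04, edgeR adjusted p = 0.307). An exon of Gm20416 on the other strand overlaps Yap1, so that its reads could be counted for Yap1 if strand was ignored.

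Tead1 (ENSMUSG00000055320, chr7:112679318-112906807, plus strand) encodes one of the DNA-binding partners of Yap1. It was at 31.8, 27.8 and 38.9 CPM with vector and at 34.7, 33.9 and 34.5 CPM with circEZH2_005. The circEZH2_005 samples all lay inside the range of the vector samples, and the log2 ratio was 0.07 (SE 0.13, 95% interval -0.23 to 0.36, edgeR adjusted p = 0.804). Its direction turned when values were taken as FPKM or when vector sample 2 was left out.

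Among the paralogs of these regulators, Wwtr1 (TAZ), the relative of Yap1, was at 0.28 ± 0.06 FPKM in the vector samples, far below Yap1. Tead3 was at 2.63 ± 0.40 FPKM, with a range that overlapped that of Tead1, and Tead4 at 0.34 ± 0.07 FPKM (SD, n = 3 each). Tead2 fell from 4.66 ± 0.76 to 1.73 ± 0.39 CPM (SD, n = 3 each), with a log2 ratio of -1.42 (SE 0.24, edgeR adjusted p = 0.0301). Every circEZH2_005 sample lay below every vector sample for Tead2, a gene named after its values were seen.

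Amotl2 (ENSMUSG00000032531, chr9:102716672-102733418, plus strand) encodes an angiomotin-like scaffold that is both a target and a brake of YAP. Its values were 2.96, 4.15 and 4.45 CPM with vector and 4.14, 5.11 and 4.76 CPM with circEZH2_005. Vector samples 2 and 3 lay within the range of the circEZH2_005 samples, and vector sample 1 was below it. The log2 ratio of 0.28 (SE 0.21, 95% interval -0.21 to 0.76) did not pass the test (edgeR adjusted p = 0.478). Of its family, Amot was better expressed, with 5.91 ± 0.29 FPKM in the vector samples, and Amotl1 was at 0.067 ± 0.047 FPKM (SD, n = 3 each).

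Ankrd1 (ENSMUSG00000024803, chr19:36111961-36119910, minus strand) encodes an ankyrin-repeat protein that is widely used as a readout of YAP activity. It was listed with 0, 0 and 8 counts in the vector samples and 10, 0 and 6 counts in the circEZH2_005 samples, which is at most 0.13 CPM. Ccn2, another common readout of YAP, was as sparse, with 8, 0 and 7 counts with vector and 9, 12 and 0 with circEZH2_005, and neither gene was tested. Counts of 4 were listed more often (5941 times) than counts of 1, 2 or 3 (4744, 3671 and 3351 times), so that a count in this table need not stand for 1 read, and the floor of 3 counts used here, between 0.0377 and 0.0419 CPM, covers counting error only.

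Clu (ENSMUSG00000022037, chr14:65968483-65981547, plus strand) was at 5.15, 2.64 and 5.34 CPM in the vector samples and at 1.56, 3.35 and 4.08 CPM in the circEZH2_005 samples. Vector samples 1 and 3 were the highest, but vector sample 2 lay below circEZH2_005 samples 2 and 3, and the groups overlapped. The log2 ratio was -0.55 (SE 0.40, 95% interval -1.49 to 0.39, edgeR adjusted p = 0.464), so that a difference was not detected, and the interval spans more than a doubling in the lower direction. Without vector sample 2 it was -0.81 (edgeR adjusted p = 0.258).

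The genes whose pattern over the 6 samples was most like that of Clu, out of 4860 compared, were mt-Ta, mt-Tn, Rnd2, mt-Tw and Nfkbia. Their log2 CPM, each centred on its own mean, differed from that of Clu by 0.092 for mt-Ta to 0.125 for Nfkbia on average. mt-Ta, mt-Tn and mt-Tw are transfer RNA genes of the mitochondrial genome, and Nfkbia encodes the inhibitor of NF-κB. Nfkbia was at 84.2, 52.4 and 91.2 CPM with vector and 38.9, 56.7 and 61.9 CPM with circEZH2_005, with vector sample 2 low and circEZH2_005 sample 1 lowest, as for Clu. None of these 5 genes passed the adjustment between the groups, with adjusted p-values by edgeR between 0.226 for Nfkbia and 0.406 for Rnd2.

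Anxa1 (ENSMUSG00000024659, chr19:20373428-20390944, minus strand) encodes annexin A1, a phospholipid-binding protein that limits inflammation through formyl peptide receptors. It was at 2.11, 1.42 and 2.39 CPM with vector and at 0.91, 0.63 and 0.88 CPM with circEZH2_005. Every circEZH2_005 sample lay below every vector sample, which held for 14.2% of all genes tested in this direction, and for 16.4% in the other. Its mean was 1.97 ± 0.50 CPM with vector and 0.81 ± 0.15 CPM with circEZH2_005 (SD, n = 3 each). The log2 ratio of -1.29 (SE 0.30, upper end of the 95% interval -0.58) missed the threshold, with an unadjusted p of 0.00319 and an adjusted p of 0.0595 by edgeR. The exact two-sided permutation test gave p = 0.1, the smallest that 3 samples against 3 allow. DESeq2 (adjusted p = 0.00499) and the edgeR fit without vector sample 2 (adjusted p = 0.0277) put it past the threshold, while the adjusted p was as high as 0.198 when vector sample 3 was left out.

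Across the 12 annexins 0 passed an adjusted p of 0.05 by edgeR, against 3.67% of all genes tested. At an unadjusted p under 0.05 there were 2 higher and 3 lower, where 23.7% of all genes tested passed in either direction. DESeq2 called 1 higher and 2 lower, against 1644 and 846 of the 16199 genes that it gave an adjusted p. Limma called 1 lower with either pseudocount, and edgeR without vector sample 2 called 1 in each direction. Anxa6 had the highest log2 ratio, being 2.82-fold higher in the fit (log2 SE 0.42, edgeR adjusted p = 0.0858), followed by Anxa2 and Anxa4 with log2 ratios of 0.35 and 0.23, and Anxa13 had -0.41. Anxa8, named after its values were seen, had 11, 35 and 70 counts with vector and 15, 6 and 4 with circEZH2_005, a log2 ratio of -2.20 (SE 0.79, edgeR adjusted p = 0.148). Anxa2 and Anxa4 were abundant, at 548 ± 32.8 and 836 ± 38.7 CPM in the vector samples (SD, n = 3 each). Of the receptors for annexin A1, Fpr2 had 8 counts in 1 circEZH2_005 sample and 0 in the other 5 samples.

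Il33 (ENSMUSG00000024810, chr19:29925114-29960718, plus strand) encodes interleukin 33, an alarmin held in the nucleus of barrier cells and released on damage. It was at 25.2, 15.3 and 19.5 CPM with vector and at 12.6, 24.5 and 16.9 CPM with circEZH2_005. The highest and the lowest samples belonged to different groups, and the others lay between them. The log2 ratio was -0.15 (SE 0.27, 95% interval -0.77 to 0.47, edgeR adjusted p = 0.786), and its direction turned when vector sample 1 or circEZH2_005 sample 1 was left out. The receptor Il1rl1 (ST2) was low, at 0.066 ± 0.033 FPKM with vector and 0.097 ± 0.075 FPKM with circEZH2_005, and the co-receptor Il1rap was at 0.68 ± 0.10 and 0.46 ± 0.12 FPKM (SD, n = 3 each). Both are named here after their values were seen, and neither passed the adjustment (adjusted p = 0.609 for Il1rl1 and 0.211 for Il1rap by edgeR). Myd88, the adaptor of this receptor, had a log2 ratio of 0.47 (edgeR adjusted p = 0.0633).

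Msln (ENSMUSG00000063011, chr17:25748613-25754377, minus strand) encodes mesothelin, a surface protein anchored by a lipid tail. Its values were 2.42, 1.08 and 3.94 CPM with vector and 0.69, 0.69 and 0.42 CPM with circEZH2_005. All circEZH2_005 samples were lower than all vector samples, and vector sample 2 was the closest to them. The mean was 2.48 ± 1.43 CPM with vector and 0.60 ± 0.16 CPM with circEZH2_005 (SD, n = 3 each), and the fitted level was 4.13-fold higher with vector. The log2 ratio of -2.05 (SE 0.49, 95% interval -3.18 to -0.91) had an unadjusted p of 0.00331 and an adjusted p of 0.0601 by edgeR (exact two-sided permutation test, p = 0.1). It passed with DESeq2 (adjusted p = 0.00104) and without vector sample 2 (log2 ratio -2.40, edgeR adjusted p = 0.00955), while the adjusted p rose to 0.190 without vector sample 3. Mesothelial cells also express Msln, and the summed level of 5 mesothelial markers was 5.21 to 6.89 CPM with vector and 3.85 to 7.19 CPM with circEZH2_005, with Wt1 at 0 in 4 of the 6 samples. Of these markers Upk1b had a log2 ratio of -0.18 (edgeR adjusted p = 0.679), with overlapping groups. Muc16, the binding partner of mesothelin, had at most 23 counts in a sample.

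Of 14 known partners and receptors of the members, 12 were in the table and 8 were tested. Of these 8, 0 passed the adjustment by edgeR, against 3.67% of all genes tested. At an unadjusted p under 0.05, 2 were higher and 1 lower, where 23.7% of all genes tested passed in either direction. DESeq2, which called 1644 of the 16199 genes that it gave an adjusted p higher, called 2 of the 8 higher. In edgeR 1 was called higher at a mean of at least 1 FPKM, without vector sample 2 and without circEZH2_005 sample 1. Cldn7, a claudin that binds Epcam, had a log2 ratio of 0.44 (SE 0.10, edgeR adjusted p = 0.0595), and S100a11, which binds annexin A1, one of -0.21 (SE 0.19, edgeR adjusted p = 0.559). Epcam, an epithelial adhesion molecule, had 0.16 (edgeR adjusted p = 0.360).

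Of the 8 epithelial markers, all with a log2 ratio above 0, 1 rose and 0 fell by edgeR, where 2.69% of all genes tested rose. At an unadjusted p under 0.05, 4 were higher and 0 lower, where 23.7% of all genes tested passed in either direction, 9.72% of all genes as lower. DESeq2, which called 1644 of the 16199 genes that it gave an adjusted p higher, called 3 of these markers higher. Krt8, a keratin of simple epithelia, rose with a log2 ratio of 0.57 (SE 0.10, edgeR adjusted p = 0.0301), and Vil1, the brush border protein villin, had 0.57 (SE 0.19, edgeR adjusted p = 0.124). Krt19 had the smallest of the list, 0.06 (edgeR adjusted p = 0.735), with overlapping groups. The summed level of the 8 was 7775 to 8191 CPM with vector and 9381 to 11717 CPM with circEZH2_005, and its part in the values of the members was not tested. Without circEZH2_005 sample 1 there were 3 higher, without vector sample 2 there was 1, and without any of the other samples 0.

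**Figure D2:**
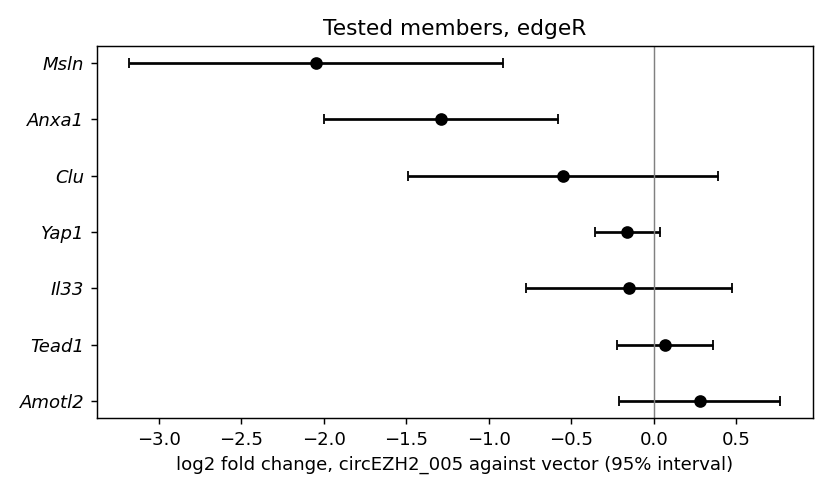
Log2 ratio of circEZH2_005 against vector from edgeR for the 7 tested members, with 95% intervals (3 samples a group). The intervals of Msln (-3.18 to -0.91) and Anxa1 (upper end -0.58) lie below 0, and those of the other 5 members include 0, but neither gene passed the adjustment over all genes.

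Leukocyte markers had higher summed levels in the circEZH2_005 samples and, within the vector group, in vector sample 2. The summed level of 10 leukocyte markers, among them Ptprc and Cd3e, was 64.0, 169 and 85.2 CPM in vector samples 1 to 3 and 363, 274 and 216 CPM in circEZH2_005 samples 1 to 3, and none of the 10 was at 0 in a group. All 10 had a log2 ratio above 0, with a median of 1.36, and 0 of them passed the adjustment by edgeR. At an unadjusted p under 0.05 there were 5 higher and 0 lower, where 23.7% of all genes tested passed in either direction, 9.72% of all genes as lower. DESeq2 called 4 higher, against 1644 of the 16199 genes that it gave an adjusted p. In edgeR without vector sample 2, 5 were called higher, against 1098 of 19145. Cd3e and Laptm5 had log2 ratios of 1.90 and 1.77 (edgeR adjusted p = 0.0982 and 0.0909), and Ptprc had 1.68 (SE 0.45, edgeR adjusted p = 0.0756). Lyz2 had only 0.18 (edgeR adjusted p = 0.859), and its groups overlapped. Ptprc alone was at 22.8, 78.6 and 31.9 CPM with vector and at 185, 140 and 103 CPM with circEZH2_005. Vector sample 2, with the most leukocyte markers of its group, had the least Clu, Anxa1, Msln, Il33 and Tead1 of its group, while Yap1 and Amotl2 were intermediate there. In the circEZH2_005 group, sample 1 had the most leukocyte markers and the least Clu and Il33. The same sample had the most Anxa1 of its group (0.906 CPM) and, narrowly, the most Msln (0.692 CPM, against 0.685 CPM in circEZH2_005 sample 2). Anxa1 is also expressed by leukocytes, and their part in its level was not tested. The summed level of 10 fibroblast and muscle markers was 8.95 to 10.2 CPM with vector and 4.90 to 13.9 CPM with circEZH2_005, and that of 5 endothelial markers 1.17 to 2.44 and 4.15 to 6.05 CPM, where Emcn was at 0 in the vector samples. Of the endothelial markers Pecam1, which leukocytes also express, was higher with circEZH2_005, with a log2 ratio of 1.93 (SE 0.36, edgeR adjusted p = 0.0377). This call was lost without a filter on low counts and with the replicate number as a block. It was also lost when any 1 sample other than vector sample 2 was left out. Pecam1 was too low to be tested at a mean of at least 1 FPKM or by limma. The methods describe, in general, sorting for Lgr5-GFP before organoids were grown, and the source of these markers was not tested. The part of these markers in the values of the members was not tested.

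**Figure D3:**
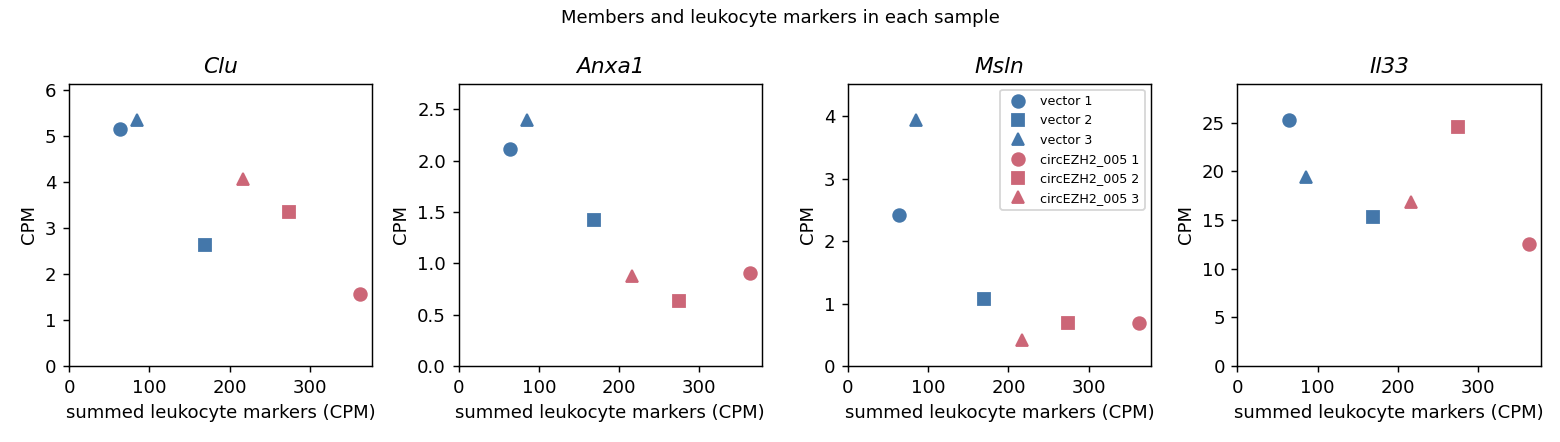
CPM of Clu, Anxa1, Msln and Il33 (vertical axes, from 0) against the summed CPM of 10 leukocyte markers (horizontal axes) in each sample, blue for vector and red for circEZH2_005. Vector sample 2 (blue square, 169 CPM of leukocyte markers) lies between the other vector samples and the circEZH2_005 samples on the horizontal axis, and has the lowest value of the vector samples for all 4 genes. Among the circEZH2_005 samples, sample 1 has the most leukocyte markers, the lowest Clu and Il33, and the highest Anxa1 and Msln.

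Other YAP/TEAD target genes gave more calls than the members. Of 22 genes of this list, which includes Ankrd1 and Amotl2, 21 were in the table and 18 were tested, of which 5 rose and 1 fell with an adjusted p under 0.05 by edgeR. The median log2 ratio of the 18 was 0.28, beside 0.00 over all genes, and 33.3% of them were called, against 3.67% of all genes tested. Nuak2, a kinase of the AMPK family, rose from 30.1 ± 3.51 to 75.1 ± 16.7 CPM (SD, n = 3 each), with a log2 ratio of 1.32 (SE 0.16, edgeR adjusted p = 0.0158). Its counts were 2018, 2551 and 2212 with vector and 4981, 7000 and 4909 with circEZH2_005, with no overlap between the groups.

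Nt5e, the ectoenzyme CD73 that makes adenosine, had a log2 ratio of 1.25 (SE 0.26, edgeR adjusted p = 0.0487), and Asap1, a regulator of Arf GTPases, one of 1.19 (SE 0.13, edgeR adjusted p = 0.0110). Crim1 and Gadd45a, named after their values were seen, had log2 ratios of 1.01 and 0.72 (edgeR adjusted p = 0.0473 and 0.0367). Ccn1, a further common readout of YAP, Ptpn14 and Igfbp3 were named in the same way and had -0.16, -0.27 and -1.04. None of these last genes passed the test (adjusted p between 0.312 and 0.825 by edgeR). Of the 18 genes tested, 12 had a log2 ratio above 0. F3, which encodes tissue factor, the starter of blood clotting, fell from 4.36 ± 0.79 to 1.46 ± 0.14 CPM (SD, n = 3 each), with a log2 ratio of -1.58 (SE 0.22, edgeR adjusted p = 0.0203). Without vector sample 1 or vector sample 3 the list had 0 called genes, without circEZH2_005 sample 2 or 3 it had 2 higher and 0 lower, and without vector sample 2 it had 5 and 1 again.

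Of 32 genes of the Hippo pathway and its TEAD partners, a list that holds Yap1, Tead1 and Amotl2, 29 were tested, 0 rose and 2 fell by edgeR, which is 6.90% of the list against 3.67% of all genes tested. At an unadjusted p under 0.05 there were 3 higher and 4 lower, where 23.7% of all genes tested passed in either direction. DESeq2 called 2 higher and 2 lower, against 1644 and 846 of the 16199 genes that it gave an adjusted p. Without vector sample 2 edgeR called 2 in each direction, and it called 0 without vector sample 1 or 3 or circEZH2_005 sample 2 or 3. The median log2 ratio was 0.01. Besides Tead2, the gene that fell was Wtip, an Ajuba-family LIM protein that restrains the Lats kinases, from 9.89 ± 0.63 to 4.60 ± 0.64 CPM (SD, n = 3 each) with a log2 ratio of -1.10 (SE 0.16, edgeR adjusted p = 0.0214). The kinase Stk4 (MST1) had 0.30, the cadherin Fat1 0.11 and the kinase cofactor Mob1a 0.10, and none of these passed the test (adjusted p between 0.106 and 0.720 by edgeR). Lats2, a kinase of the pathway and at the same time a YAP target, had 1.26 (SE 0.29, edgeR adjusted p = 0.0574), and is named after its values were seen.

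Of 22 other genes of the fetal-like and regenerative epithelium, all tested, 2 rose and 0 fell by edgeR (9.09% of the list, against 3.67% of all genes), with a median log2 ratio of 0.19. At an unadjusted p under 0.05 there were 4 higher and 3 lower, where 23.7% of all genes tested passed in either direction. DESeq2 called 3 higher and 2 lower, against 1644 and 846 of the 16199 genes that it gave an adjusted p. Areg, the EGF-receptor ligand amphiregulin, rose from 4.19 ± 1.78 to 24.9 ± 9.60 CPM (SD, n = 3 each), with a log2 ratio of 2.57 (SE 0.39, edgeR adjusted p = 0.0235), and Cldn4, a tight junction claudin, rose by 2.00 (SE 0.15, edgeR adjusted p = 0.00249). Ereg, a ligand of the same receptor, was 2.46-fold higher in the fit (edgeR adjusted p = 0.0509). S100a6, a calcium-binding protein high in fetal-type cells, lay on the side of Anxa1 and Msln, with counts of 6698, 2567 and 7775 with vector and 1744, 2216 and 1406 with circEZH2_005. Its log2 ratio was -1.66 (SE 0.38, edgeR adjusted p = 0.0553), and vector sample 2 was again the closest to the circEZH2_005 samples. Without vector sample 2 there were 2 higher and 1 lower, and without any other sample 1 to 3 higher and 0 lower.

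The usual crypt stem cell markers gave 0 higher and 4 lower genes of 14 tested by edgeR (28.6% of the list, against 3.67% of all genes tested, or 0.986% as lower), with a median log2 ratio of -0.50. At an unadjusted p under 0.05 there were 0 higher and 8 lower, where 9.72% of all genes passed as lower. DESeq2 also called 0 higher and 8 lower, where it called 5.22% of the 16199 genes that it gave an adjusted p as lower. Lgr5 fell from 15.5 ± 3.19 to 8.45 ± 0.70 CPM (SD, n = 3 each), with a log2 ratio of -0.88 (SE 0.18, edgeR adjusted p = 0.0434). The others were Smoc2 with -0.81, Prom1 with -0.75 and Rgmb with -0.58 (adjusted p between 0.0203 and 0.0331 by edgeR), named after their values were seen. Rnf43, Axin2 and Cdca7 had 0.32, 0.31 and -0.11 and did not pass the test. Rnf43 and Axin2 were the only 2 of the 14 markers with a log2 ratio above 0. Without vector sample 2 there were 6 lower, against 334 of all 19145 genes, and without circEZH2_005 sample 1 there were 3, against 128 of 18990. Without any of the other samples there were 0, in fits that called only 2 to 33 of all genes lower.

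**Figure D4:**
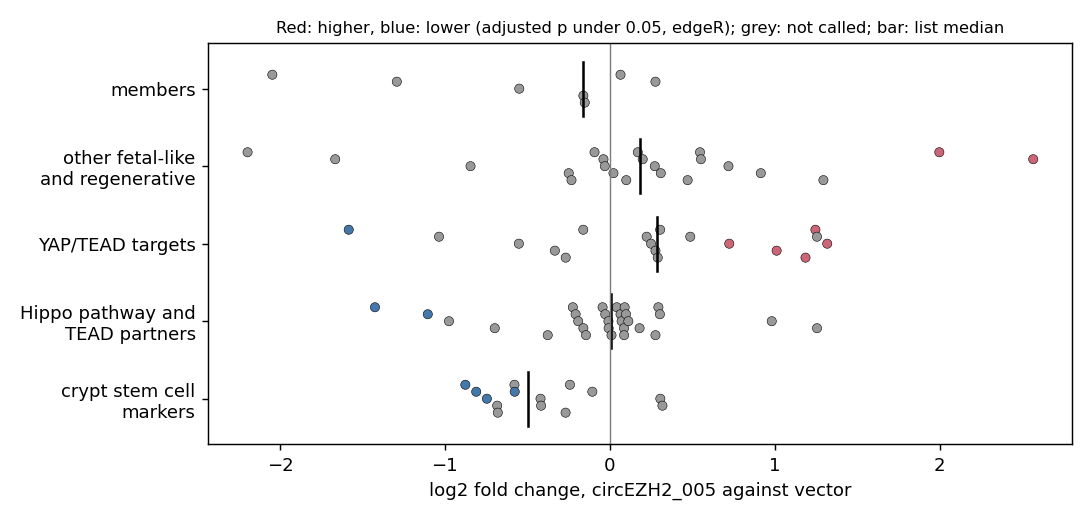
Log2 ratio of circEZH2_005 against vector (horizontal axis) for each tested gene of the members and of 4 related lists, red where higher and blue where lower with an adjusted p under 0.05 by edgeR, grey otherwise, with the list median as a bar. The members have 0 called genes, the other YAP/TEAD targets 5 higher and 1 lower, and the crypt stem cell markers 4 lower. Ankrd1 and Amotl2 belong to the target list as well, and Yap1, Tead1 and Amotl2 to the Hippo list.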

How the data were processed

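Polyadenylated RNA of 6 mouse samples was sequenced. For every gene the authors deposited a raw count per sample and an FPKM value that they had computed; the submitters' processing notes list cutadapt 1.9, HISAT2 2.0.4, StringTie 1.3.4d and DESeq2 on mm10, and the counter and annotation are not given in the sources used here. Control columns named NC were taken for the vector group, as no other control is labelled.

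Counts summed to between 71506487 and 79919893 per sample. Genes passing filterByExpr were scaled with TMM and compared with edgeR 4.0.16 (quasi-likelihood, no covariate, R 4.3.3). The standard error of a log2 ratio is its size over the root of the F statistic, and p-values were adjusted over all genes tested. Permutation tests used log2(CPM + 0.5). Alternatives used DESeq2 1.42.0, limma 3.58.1, other filters and scaling, a replicate block, and each sample left out. Members and lists were chosen with earlier results of these data known, and 1 further gene of the set is not reported here. Named are all members and, of each list, the 3 largest and the 1 smallest log2 fold change at a mean of at least 1 FPKM, and for Clu the 5 nearest genes.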

Additional observations from a re-analysis of the deposited data

How the results depend on the processing

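Of the 13 alternatives, those that called members were DESeq2 (2 lower) and the fit without vector sample 2 (2 lower), and the lower members called when 1 sample was left out numbered from 0 to 2. Over 10 alternatives each, the log2 fold change lay between -1.48 and -1.13 for Anxa1 and between -2.40 and -1.55 for Msln. Neither gene could be tested at a mean of at least 0.5 FPKM or more. Clu, Amotl2 and Yap1 kept their direction in every alternative that tested them. Directions turned for Il33 without vector sample 1 (0.049) and without circEZH2_005 sample 1 (0.050), its range with 1 sample left out being -0.44 to 0.050, and for Tead1 with limma on log2(FPKM + 1) (-0.0087), on log2(FPKM + 0.1) (-0.0092) and without vector sample 2 (-0.041), the range with 1 sample left out being -0.041 to 0.20. Over all genes, the 493 higher and 181 lower genes became 132 and 37 without a filter, 1644 and 846 with DESeq2, 323 and 319 with limma on log2(FPKM + 0.1), and 364 lower with limma on log2(FPKM + 1). Leaving out 1 sample gave between 26 and 1098 higher and between 2 and 334 lower genes; without vector sample 1 there were 26 and 2, without vector sample 3 31 and 2, and without vector sample 2 1098 and 334. Without circEZH2_005 sample 1 there were 553 and 128, without circEZH2_005 sample 2 62 and 6, and without circEZH2_005 sample 3 136 and 33. The cause was not tested. With the replicate number as a block, 241 genes were higher and 36 lower, and 0 members were called, with 2 higher and 1 lower of the YAP/TEAD targets, 1 lower of the Hippo list and 2 lower of the crypt markers. The deviations from the group means of samples of the same number had correlations of -0.23, -0.04 and 0.09 across genes. Samples of different numbers were not compared in this way, so whether the numbers pair the samples was not settled. The alternatives for the other lists were chosen after seeing the data.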
